A study of Mus musculus with 12 samples.

Results

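CD115-sorted splenic fractions labelled as monocytes, taken 24 h after 70% liver resection, were compared with the same fractions of intact animals. Of the 12 RNA-seq libraries of the series, 6 belonged to this comparison, 3 labelled as spleen monocytes CD115+ after resection and 3 as spleen monocytes CD115+ of intact animals; they were chosen by their titles alone. The other 6 libraries were labelled as blood monocytes CD115+ of the same 2 states and entered the statistical model and one test of a difference between the tissues.

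All animals were male C57BL/6 mice, and every library held cells from 5 mice. The labels give the liver and spleen of the control group as intact, whereas the resected group kept the spleen, lost 70% of the liver mass, and also received isoflurane anaesthesia, a laparotomy and meloxicam for pain. Whether the control animals had a sham operation was not given for these libraries in the sources used here. If they had none, the loss of liver tissue and the rest of the operation cannot be told apart. Operations were made in the late morning, and the hour at which intact animals were sampled was not given in the sources used here. Splenic cells were released with collagenase, freed of red blood cells by lysis, separated on Ficoll and sorted with magnetic beads against CD115, the receptor encoded by Csf1r. Because a sorted fraction was sequenced in bulk, fewer cells of a type and less RNA per cell cannot be told apart.

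Monocytes are short-lived myeloid cells made in the bone marrow, and the red pulp of the spleen holds a reserve of them that can be mobilized after injury. An activated monocyte switches on a rapid programme driven by the transcription factors NF-kB and AP-1, which includes chemokines that attract neutrophils, cytokines such as TNF and interleukin-1, and the enzyme inducible nitric oxide synthase. Corticosteroids, hormones of the stress response, restrain this programme and induce another set of genes, among them metallothioneins and Per1.

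The splenic libraries held 36990033 to 42174039 estimated counts each, of which 3.45% to 4.33% were not assigned to a gene. A total of 20135 features passed the filter on low counts and were tested with edgeR. Levels are read counts scaled by TMM library sizes (CPM), n = 3 libraries per state throughout, and the log2 fold change is resected over intact. Calls required both an edgeR p under 0.05 after Benjamini-Hochberg adjustment and an absolute log2 fold change above 1. In the splenic comparison 157 features, 0.78% of those tested, were called higher and 120, 0.596%, were called lower, 1.38% in either direction. The median log2 fold change over all features was 0.05. By the simpler count of features whose 3 resected libraries all lay above or all lay below the 3 intact ones, 17.4% were higher and 17.7% were lower. DESeq2 on the same counts called 4.75% higher and 3.02% lower. The edgeR calls depended on single libraries: without intact library 1 only 1 feature was called, without intact library 2 only 3 and without resected library 3 only 25. With the 6 splenic libraries fitted alone, 129 of the 277 called features were called again. Of the called features 11 had at most 3 counts in every intact library and 10 in every resected one, so their fitted fold changes depend on the fit and are not read as sizes.

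**Figure D1:**
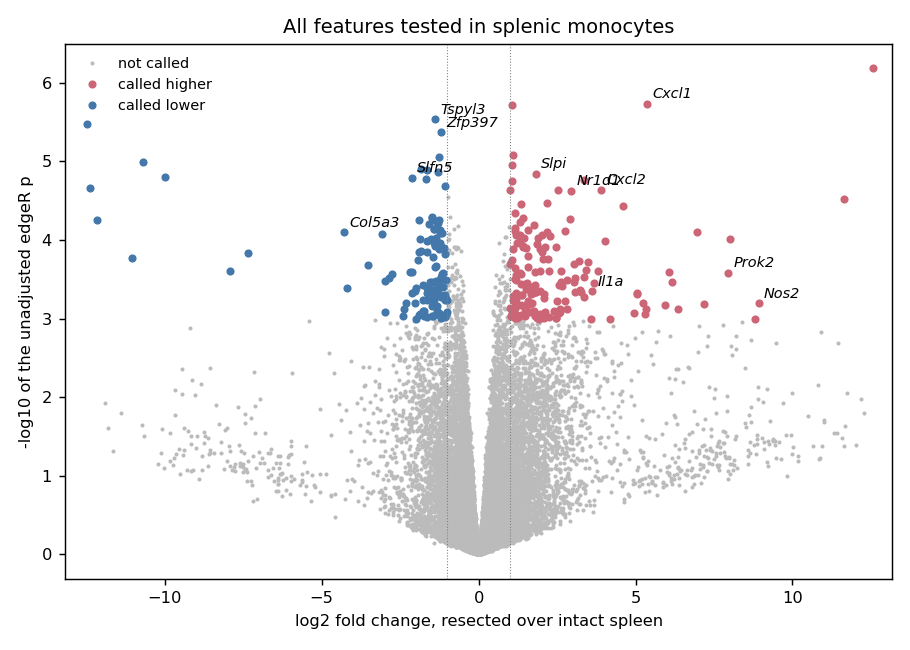
Log2 fold change (horizontal) against the -log10 of the unadjusted edgeR p (vertical) for the 20135 features tested in the splenic CD115+ fractions labelled as monocytes. Of these 157 were called higher (red) and 120 lower (blue), and dotted lines mark a log2 fold change of 1 in either direction.

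The sorted fractions were checked against marker genes. Csf1r was present at 374, 459 and 525 CPM in the intact libraries and at 915, 1192 and 587 CPM in the resected ones. The resected libraries all lay above the intact ones, yet the log2 fold change of 0.99 ± 0.32 (SE) was not called (edgeR adjusted p = 0.119). The 12 monocyte markers summed to 1778 to 2145 CPM in intact and 3771 to 3900 CPM in resected libraries, with no member called by edgeR, 2 called higher and 1 lower by DESeq2, and a median log2 fold change of 0.67. Ly6c2, the marker of classical monocytes, stood at 75.0, 75.8 and 76.1 CPM in intact and 57.3, 70.8 and 101 CPM in resected libraries, whose ranges overlapped. Cx3cr1, the fractalkine receptor of patrolling monocytes, read 11.2, 13.5 and 31.3 CPM in intact and 4.11, 4.83 and 3.05 CPM in resected libraries without overlap and was called lower by DESeq2 but not by edgeR (log2 fold change -2.22, edgeR adjusted p = 0.0604).

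RNA of other cells was abundant in these fractions. Per kilobase of transcript, the B cell gene Cd79a averaged 855 ± 47.6 CPM per kb (SD) in the intact libraries, against 96.3 ± 16.1 for Csf1r. Cd79a was the highest of the 12 B cell markers on this scale. Ebf1 (27.8), Bank1 (65.2) and Pax5 (94.0) averaged below Csf1r, and all other members averaged above it. The 12 B cell markers summed to 6594 to 7547 CPM in intact and to 5717, 4209 and 1635 CPM in resected libraries 1, 2 and 3. edgeR called none of them and DESeq2 called 1 lower, and all 12 log2 fold changes were negative with a median of -0.82. The plasma cell list, led by the immunoglobulin joining chain gene Jchain, summed to 2515 to 3565 CPM in intact and 5016 to 5611 CPM in resected libraries. The sums of the T cell list (227 to 499 CPM against 101 to 154) and the NK cell list (85.6 to 166 CPM against 11.8 to 49.8) lay below the intact range after resection. edgeR called no member of either list, and DESeq2 called 6 of 10 T cell and 5 of 8 NK cell genes lower, beside 3.02% of all features.

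Sums of neutrophil, erythroid and red pulp macrophage markers were higher after resection. Of 16 neutrophil markers, 3 were called higher by edgeR, beside 0.78% of all features, namely Ltf (log2 fold change 1.89), Prtn3 (3.44) and Ly6g (2.07), which encode lactoferrin, proteinase 3 and a surface antigen used to stain granulocytes. The list summed to 2524, 2207 and 1370 CPM in the intact libraries and 6287, 5941 and 16528 CPM in the resected ones, and the median log2 fold change was 2.35. DESeq2 called 13 of the 16 higher, beside 4.75% of all features, and 13 were higher without overlap, beside 17.4%. Erythroid markers summed to 1050, 809 and 3583 CPM in intact and 7779, 33637 and 9492 CPM in resected libraries. edgeR called none of the 12 erythroid markers and DESeq2 called all 12 higher. Haemoglobin genes accounted for 0.0814% to 0.363% of counts in intact and 0.795% to 3.47% in resected libraries. The red pulp macrophage list summed to 1704 to 2658 CPM in intact and 5049, 7232 and 3364 CPM in resected libraries 1, 2 and 3. Among its 13 members edgeR called only Hmox1, heme oxygenase 1, and DESeq2 called 5, and 9 were higher without overlap, beside 17.4%. In resected library 3 Axl, Cd5l, Slc40a1 and Vcam1 lay below all 3 intact libraries, while Hmox1, which counts in the sum, had its highest value of 1389 CPM. No hepatocyte marker passed the filter, and 8 of 10 were at or under 3 counts in every splenic library. The mesothelial list summed to at most 2.56 CPM. The part of these other cells in the gene changes described next was not tested.

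**Figure D2:**
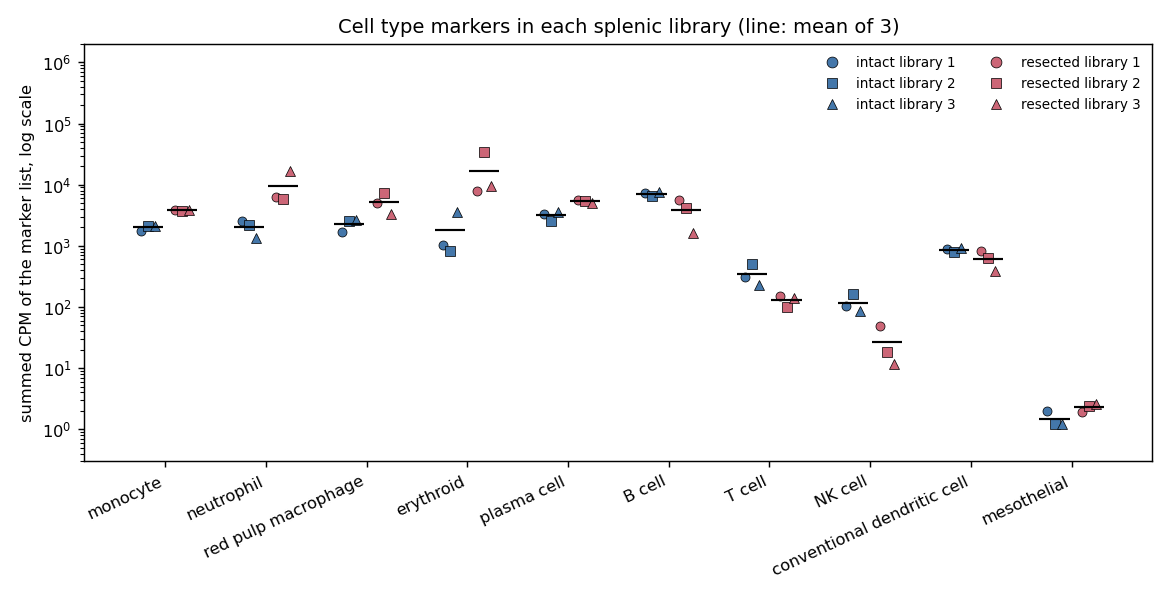
Summed CPM of marker genes (vertical, log scale) for 10 cell types (horizontal) in each of the 6 splenic libraries, with symbols for the library number and a line at the mean of 3. The neutrophil and erythroid sums lie higher in all 3 resected libraries, the B cell, T cell and NK cell sums lie lower, and resected library 3 has the highest neutrophil sum (16528 CPM) and the lowest B cell sum (1635 CPM).

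The neutrophil-attracting chemokines Cxcl1, Cxcl2 and Cxcl3 rose together. Cxcl1 read 0.358, 0.668 and 0.553 CPM in intact libraries and 27.3, 11.6 and 26.5 CPM after resection, 41.1-fold higher (log2 fold change 5.36 ± 0.55, adjusted p = 0.0128). Cxcl2 was present before the operation, at 22.9, 27.3 and 29.0 CPM, and reached 240, 286 and 652 CPM (log2 fold change 3.89 ± 0.53, adjusted p = 0.0183). Cxcl3 read 0.231, 0.209 and 0.128 CPM in intact libraries and 2.71, 2.95 and 35.6 CPM in resected ones (log2 fold change 6.16 ± 1.16, adjusted p = 0.0366). The states did not overlap for any of the 3 genes. Resected library 3 held most of the Cxcl3 signal, and without it the fitted log2 fold change of Cxcl3 was 3.88. DESeq2 gave no adjusted p for Cxcl3. The 3 genes are close paralogs, and how shared reads were divided among them was not stated in the sources used here. They were the only called members among 27 chemokine ligands tested, whose median log2 fold change was 0.75. Of all features 0.78% were called higher. Of the 27 ligands 11 (40.7%) had all resected libraries above the intact ones, beside 17.4% of all features. The monocyte attractant Ccl2, picked out after its values were seen, read 2.17, 3.01 and 10.3 CPM in intact and 2.10, 16.4 and 4.84 CPM in resected libraries, which overlapped.

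The promoters of the called chemokine genes are shown because the genes rose together and share a short stretch just upstream of the start. In the RefSeq promoters of assembly GRCm38.p6, the letters GGAATTTCC, which form the core of a site bound by NF-kB, were searched on both strands in the 250 bases before each start. They occurred in 94 of 32851 promoters (0.286%), which is 93 of 27025 genes (0.344%). Among the 20 tested chemokine ligands in that table, 4 held the letters: Cxcl1, Cxcl2, Cxcl3 and Cxcl10, the last of which was not called. The 3 stretches all lie on the plus strand of chromosome 5, at chr5:90891135-90891223 for Cxcl1, chr5:90903763-90903851 for Cxcl2 and chr5:90785989-90786077 for Cxcl3, and capitals mark the match, which begins 70, 96 and 72 bases before the start, respectively.
Cxcl1: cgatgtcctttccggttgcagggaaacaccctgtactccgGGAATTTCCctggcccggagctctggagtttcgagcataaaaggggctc
Cxcl2: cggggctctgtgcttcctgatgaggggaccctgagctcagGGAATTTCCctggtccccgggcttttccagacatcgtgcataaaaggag
Cxcl3: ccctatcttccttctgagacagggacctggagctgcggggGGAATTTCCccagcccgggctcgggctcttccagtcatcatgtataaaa
A match describes the letters in the window and is not evidence that a factor was bound.

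Other inflammatory mediators rose as well, with a wide spread between the resected libraries. Il1a, which encodes interleukin-1 alpha, read 1.62, 2.86 and 4.85 CPM in intact and 29.7, 10.5 and 74.3 CPM in resected libraries (log2 fold change 3.61 ± 0.71, adjusted p = 0.0396). Tnf, the gene of tumour necrosis factor, read 9.83, 12.2 and 18.5 CPM in intact and 80.6, 39.7 and 266 CPM in resected libraries (log2 fold change 3.25 ± 0.64, adjusted p = 0.0397). In both genes the states did not overlap, resected library 3 was highest and resected library 2 lowest. Il1b, picked out after its values were seen, went the other way, at 475, 707 and 530 CPM in intact and 162, 270 and 407 CPM in resected libraries, without overlap and without a call (log2 fold change -1.03 ± 0.62, adjusted p = 0.382). Of the 16 interleukin-1 family genes tested, Il1a was the only one called, beside 0.78% of all features called higher. Of that family 31.25% were higher and 18.75% lower without overlap, beside 17.4% and 17.7% of all features. Of 17 other cytokine genes, Tnf was the only one called. That list had 9 positive and 8 negative log2 fold changes, with a median of 0.20. Il6, also picked out after its values were seen, stayed at or below 0.32 CPM in every splenic library.

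Nos2, the gene of inducible nitric oxide synthase, was close to the counting limit in intact spleen. It had 5, 4 and 2 counts in the intact libraries and 428, 182 and 4174 in the resected ones, that is 0.105, 0.0835 and 0.0426 CPM against 9.99, 3.97 and 103 CPM. All resected libraries lay far above the intact ones (log2 fold change 8.92 ± 1.83, adjusted p = 0.0431), while the resected libraries themselves ranged from 3.97 to 103 CPM. Nos2 and Il1a were not called when the 6 splenic libraries were fitted alone, and Nos2 was not called when any splenic library was left out, with log2 fold changes of 6.44 to 9.45, whereas Cxcl1 and Cxcl2 kept their calls except without intact library 1 or 2. Within the list of arginine metabolism and polarization genes, 17 tested, Odc1 (ornithine decarboxylase, log2 fold change 1.51) was also called higher and Clec10a (a galactose-binding lectin of macrophages, -1.45) was called lower. Over all features 0.78% were called higher and 0.596% lower. Azin1, the inhibitor of ornithine decarboxylase antizyme, rose from 98.0, 99.5 and 113 CPM to 198, 200 and 227 CPM (log2 fold change 1.01, adjusted p = 0.0183). Arg1, arginase 1, picked out after its values were seen, read 0.0631, 0.209 and 0.0426 CPM in intact and 3.57, 5.81 and 24.0 CPM in resected libraries and was called higher by DESeq2 but not by edgeR (edgeR adjusted p = 0.0835).

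**Figure D3:**
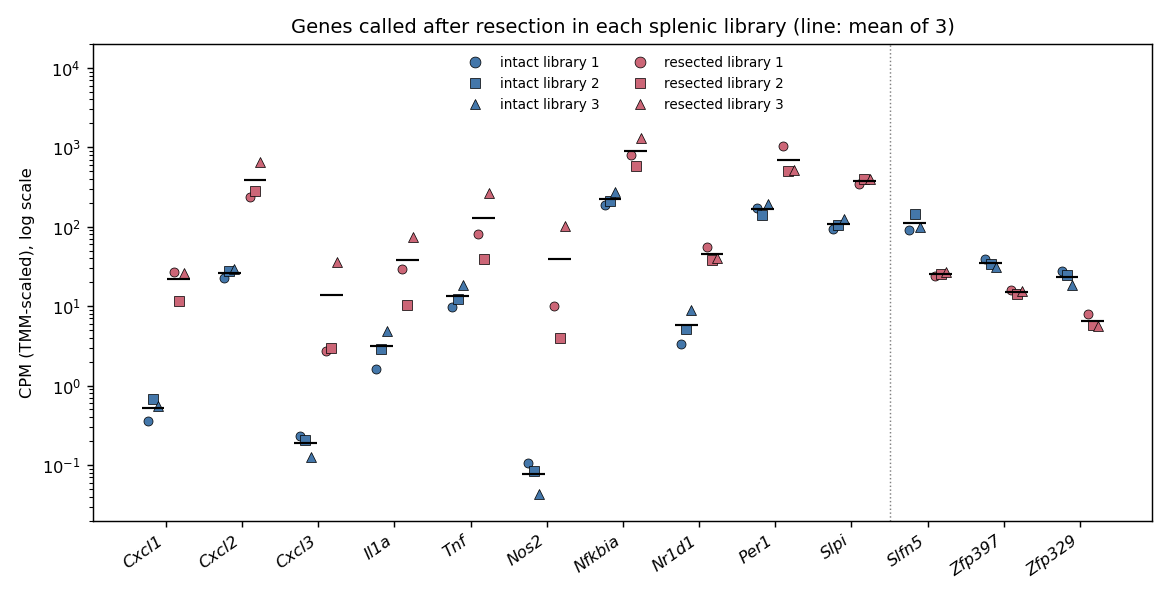
CPM (vertical, log scale) of 13 called genes (horizontal) in each of the 6 splenic libraries, with symbols for the library number and a line at the mean of 3. Left of the dotted line are 10 genes called higher and right of it 3 genes called lower. The 2 states do not overlap for any of them, and resected libraries spread from 3.97 to 103 CPM for Nos2 but only from 23.8 to 26.9 CPM for Slfn5.

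A few regulators of the inflammatory response also rose. Nfkbia, the inhibitor of NF-kB that NF-kB itself induces, rose from 189, 213 and 270 CPM to 795, 576 and 1322 CPM (log2 fold change 2.00 ± 0.32, adjusted p = 0.0253). It was the only called member of 22 NF-kB subunits and feedback regulators, whose median log2 fold change was 0.13. Of 24 AP-1 and EGR immediate-early genes 3 were called higher and none lower, beside 0.78% and 0.596% of all features, with a median of 0.68. These were the AP-1 subunit Fosl1 (0.147, 0.0417 and 0.447 CPM against 5.16, 2.34 and 13.6 CPM, log2 fold change 5.03), the survival gene Ier3 (1.95) and the orphan receptor Nr4a3 (2.25). Id2, an inhibitor of helix-loop-helix factors, rose from 83.9, 95.7 and 88.5 CPM to 186, 175 and 202 CPM (log2 fold change 1.07 ± 0.14, adjusted p = 0.018), with little spread between libraries.

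Of 15 glucocorticoid-responsive genes tested 5 were called higher and none lower, beside 0.78% of all features called higher, and the list median was 1.26 on the log2 scale. Besides Nfkbia these were Per1, the metallothioneins Mt1 and Mt2, which bind zinc and other metals, and Anxa1, annexin A1, an anti-inflammatory protein, which was named after its values were seen. Per1 rose from 173, 142 and 194 CPM to 1026, 502 and 523 CPM (log2 fold change 2.01 ± 0.34, adjusted p = 0.0262). Mt2 read 4.97, 2.76 and 3.55 CPM in intact and 14.8, 31.6 and 69.9 CPM in resected libraries (log2 fold change 3.36), and Mt1 and Anxa1 had log2 fold changes of 2.62 and 2.58. Other members were not called. Tsc22d3 and Fkbp5, picked out after their values were seen, had log2 fold changes of 0.09 and -0.32, and Fkbp5 ranged from 23.0 to 251 CPM among the intact libraries.

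Per1 also belongs to the circadian clock, as do 2 further called genes that encode the REV-ERB nuclear receptors, repressors that form a feedback arm of the clock. Nr1d1 rose from 3.32, 5.22 and 8.92 CPM to 56.0, 37.7 and 40.7 CPM (log2 fold change 2.94 ± 0.40, adjusted p = 0.0183). Nr1d2 rose from 44.0, 49.9 and 51.0 CPM to 211, 121 and 95.2 CPM (log2 fold change 1.56 ± 0.30, adjusted p = 0.037). Of 19 clock genes tested 3 were called higher, beside 0.78% of all features, and none lower, 17 log2 fold changes were positive, and the median was 0.73. The E-box CACGTG, the letters bound by CLOCK and BMAL1, was searched in the same promoter windows and was found in 5 of the 16 clock genes present in the table, beside 6.86% of all genes (6.02% of all promoters). Among the 3 called genes only Per1 held it, in 1 of its 2 listed promoters, shown here with the match in capitals (GRCm38.p6 chr11:69098743-69098828, plus strand, match beginning 166 bases before the start).
Per1: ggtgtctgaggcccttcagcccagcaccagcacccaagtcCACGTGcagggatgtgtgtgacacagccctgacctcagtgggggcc

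Several genes of protease inhibitors and acute-phase defence proteins rose. Of 18 tested members of this list 6 were called higher, beside 0.78% of all features, and none lower, with a median log2 fold change of 2.48 (2.17 when genes at the counting limit are set to their bound). Slpi, the secretory leukocyte peptidase inhibitor, rose from 94.4, 106 and 124 CPM to 347, 399 and 395 CPM (log2 fold change 1.82 ± 0.24, adjusted p = 0.018). Wfdc17, a related secreted protein, rose from 16.6, 20.4 and 11.003 CPM to 113, 106 and 270 CPM (log2 fold change 3.35 ± 0.44, adjusted p = 0.018). Both genes kept the 2 states apart with room to spare. Wfdc21 (log2 fold change 3.67) was called as well. The stefin A genes Stfa2 and Stfa3, intracellular inhibitors of cysteine proteases, had log2 fold changes of 5.93 and 6.34. Stfa2 read 0.442, 0.793 and 0.404 CPM in intact and 13.7, 10.4 and 76.4 CPM in resected libraries. Stfa3 read 3.29, 3.08 and 23.5 CPM in resected libraries, so library 3 was far the highest for both. DESeq2 gave no adjusted p for either gene. Their edgeR calls returned in 5 (Stfa2) and 4 (Stfa3) of 20 alternative settings. The stefin genes form a cluster of near-identical copies, so the split between them is uncertain. The neutrophil markers, with sums of 1370 to 2524 CPM in intact and 5941 to 16528 CPM in resected libraries, moved with this list, and their part in it was not tested.

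Further genes with very large changes were low or absent in intact spleen. Prok2, a secreted prokineticin, had 4, 10 and 3 counts in the intact libraries and 1375, 439 and 2022 in the resected ones (fitted log2 fold change 7.96 ± 1.45, adjusted p = 0.0346). Pnpla1, a lipid acyltransferase, had 1, 2 and 0 counts in intact and 130, 55 and 258 in resected libraries, and was at least 55.8-fold higher against a floor of 3 counts per library. Ttll13, a tubulin polyglutamylase, had 0 counts in every intact library and 79, 86 and 14 in the resected ones, at least 21.5-fold higher against the same floor. B230303A05Rik completed the group with 3, 7 and 3 counts against 157, 101 and 534.

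A few genes of cathepsins and other lysosomal proteins rose by smaller amounts. Of 35 such genes tested 4 were called higher, beside 0.78% of all features, and none lower, the median log2 fold change was 0.25, and 54.3% of the members had all resected libraries above the intact ones, beside 17.4% of all features. Ctsd, cathepsin D, rose from 332, 352 and 308 CPM to 644, 762 and 1076 CPM (log2 fold change 1.32 ± 0.21, adjusted p = 0.0253). Ctsb, cathepsin B, rose from 995, 1084 and 1073 CPM to 2176, 2763 and 1764 CPM (1.09 ± 0.22, adjusted p = 0.042). Lgmn, the asparaginyl endopeptidase legumain (1.21), and Gla, alpha-galactosidase A (1.96), were the other 2. Of 21 antioxidant NRF2 targets 2 were called, Hmox1, which degrades heme, and Gclm, a subunit of the enzyme that makes glutathione precursors. Hmox1 read 188, 320 and 425 CPM in intact and 753, 1096 and 1389 CPM in resected libraries (log2 fold change 1.79 ± 0.33, adjusted p = 0.0345), and the list median was 1.13. Haemoglobin and the sum of red pulp macrophage markers, a list that includes Hmox1, were also higher after resection, as given above. Among the resected libraries, library 3 had the lowest red pulp sum (3364 CPM) and the lowest Ctsb (1764 CPM) but the highest Hmox1 and Ctsd. The part of these other cells was not tested.

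Growth factor, complement, BCL2 family and translation factor genes contributed 2 called members each, to be read beside the 0.78% of all features called higher. Hbegf, heparin-binding EGF-like growth factor, a mitogen of hepatocytes, rose from 0.884, 1.88 and 1.60 CPM to 10.1, 6.18 and 7.69 CPM (log2 fold change 2.46 ± 0.41, adjusted p = 0.0253). Gdf15, a stress-induced cytokine of the TGF-beta family, rose from 0.442, 1.27 and 3.62 CPM to 30.2, 23.3 and 10.3 CPM (3.58 ± 0.78, adjusted p = 0.0499). The call of Gdf15 returned in only 3 of 20 alternative settings. Hbegf and Gdf15 were the 2 called among 22 growth factor genes, whose median was 0.70. Of 27 complement genes C1ra (log2 fold change 1.501) and C2 (1.64) were called higher, with a median of 1.34. The pro-apoptotic gene Bbc3, which encodes PUMA (1.97), and the anti-apoptotic gene Bcl2l1 (1.86) were both called higher among 16 BCL2 family genes, whose median was 0.13. The translation factors Etf1 (1.197) and Eif5 (1.00), which act in termination and initiation, were the 2 called of 70.

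Several groups of metabolic and cell cycle genes had positive medians without an edgeR call. Of 83 oxidative phosphorylation genes 82 had positive log2 fold changes, with a median of 0.41, and 42.2% of them were higher without overlap, beside 17.4% of all features. Cox8a, a subunit of cytochrome oxidase, read 89.8, 86.8 and 96.6 CPM in intact and 126, 156 and 145 CPM in resected libraries (log2 fold change 0.64, adjusted p = 0.0362, under the fold limit). Glycolysis genes had a median of 0.85 over 22 genes, 14 of them (63.6%) higher without overlap, beside 17.4%, and the hexokinase gene Hk3 had the smallest p (1.26, adjusted p = 0.0842). The 33 cell cycle and DNA replication genes had a median of 1.43, none was called by edgeR, and 12 (36.4%) were higher without overlap, beside 17.4%. Cdt1 and Fen1, a licensing factor and a nuclease of DNA replication that stood outside that list and were named after their values were seen, were called higher with log2 fold changes of 1.35 and 1.58. Erythroid markers moved with the cell cycle list, and their part in it was not tested.

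**Figure D4:**
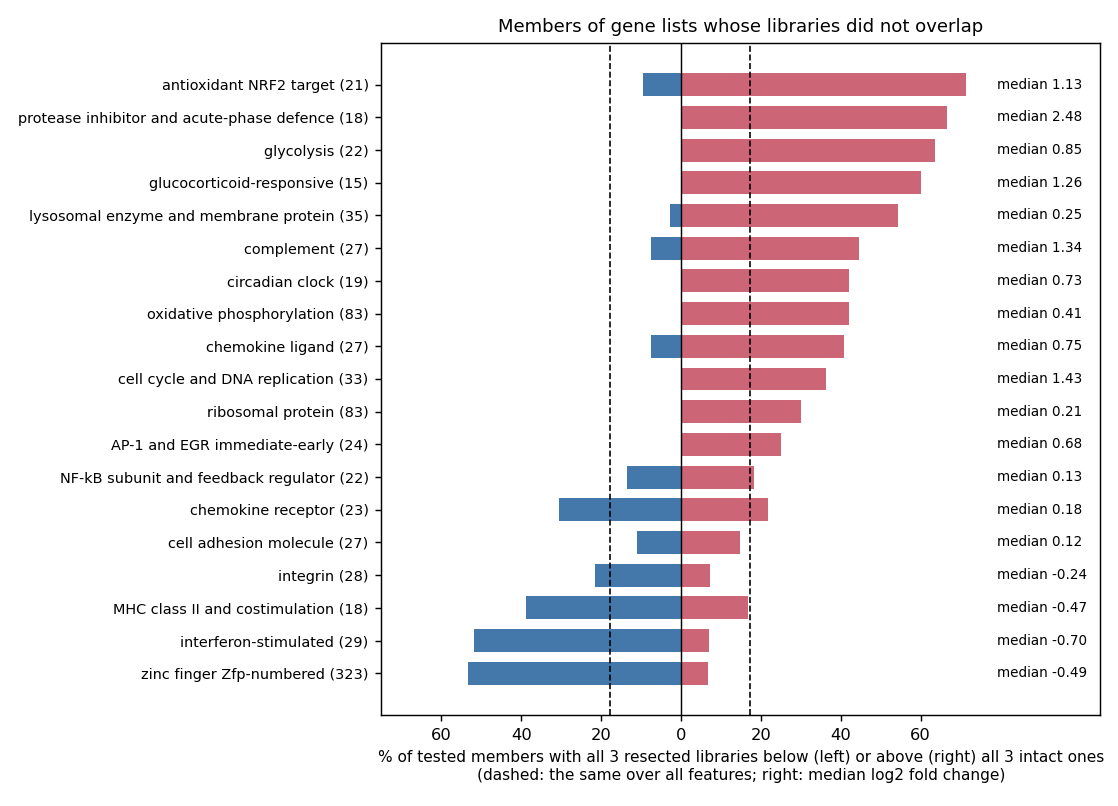
For 19 gene lists (vertical, number of tested members in brackets), the percentage of members whose 3 resected libraries all lay below (blue, left) or all above (red, right) the 3 intact libraries. Dashed lines mark 17.7% and 17.4%, the values over all features, and the median log2 fold change of each list is printed at the right.

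The list with the most called-lower members was the zinc finger family named Zfp with a number, which largely comprises DNA-binding proteins, many of them repressors. Of 323 such genes tested 32 (9.91%) were called lower and none higher, beside 0.596% of all features called lower. They made up 30.2% of the 106 called-lower genes with a symbol and 2.06% of all tested genes with a symbol. The fold changes were moderate, from -1.02 to -2.04 on the log2 scale among the called ones. Zfp397 read 38.8, 33.6 and 31.4 CPM in intact and 15.8, 14.3 and 15.4 CPM in resected libraries (log2 fold change -1.19 ± 0.13, adjusted p = 0.0143). Zfp329 read 27.4, 24.6 and 18.3 CPM in intact and 8.08, 5.87 and 5.63 CPM in resected libraries (log2 fold change -1.84 ± 0.24, adjusted p = 0.018). In both genes the resected libraries were close to each other and well below the intact ones. Zfp738 (-1.67) and Zfp873 (-1.90) followed. Over the whole family 261 of 323 log2 fold changes were negative, the median was -0.49, and 172 genes (53.3%) were lower without overlap, beside 17.7% of all features. The median stayed between -0.55 and -0.43 when each splenic library was left out in turn, whereas the number of called members ranged from 0 to 15 in those fits. Many of these genes are close paralogs, and the counting could have divided their reads.

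Transcript length moved with the fold changes over all genes, so the family was also read within 4 equal groups of length, from the longest GENCODE transcript of each of 14444 genes (321 of the 323 zinc finger genes had one). The median log2 fold change of the other genes was 0.21 in the shortest group, 0.10 and 0.03 in the next ones and -0.08 in the longest. The zinc finger genes had medians of -0.16, -0.54, -0.41 and -0.56 in the same groups, below the other genes in each. B cell and T cell marker sums were lower in the same resected libraries, and their part in the zinc finger result was not tested.

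**Figure D5:**
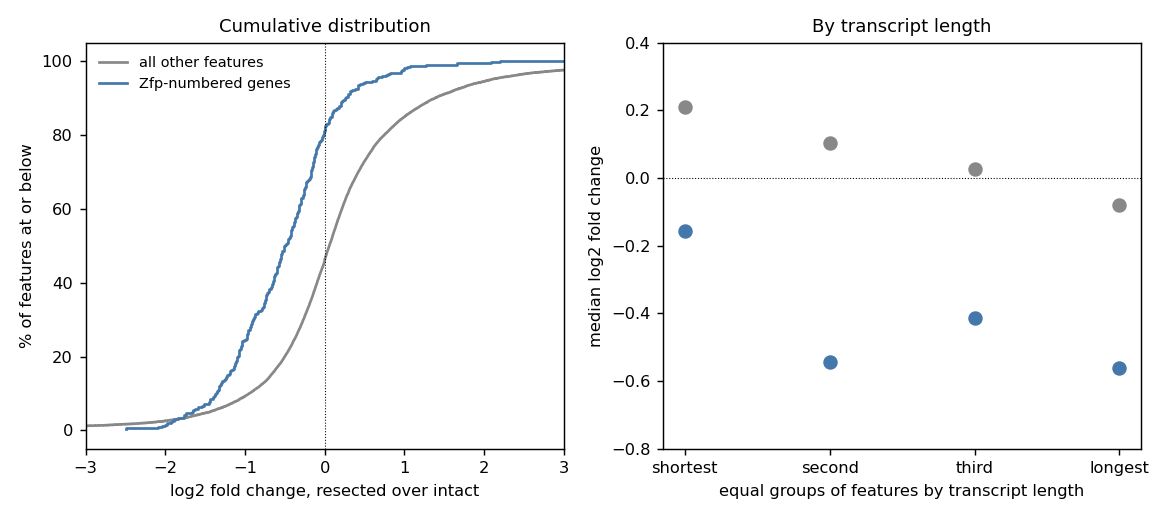
Left, the cumulative percentage of features (vertical) at or below a given log2 fold change (horizontal, resected over intact) for the 323 Zfp-numbered genes (blue) and all other features (grey). Right, the median log2 fold change (vertical) in each of 4 groups of transcript length (horizontal), where the zinc finger medians run from -0.16 to -0.56 and those of the other genes from 0.21 to -0.08.

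Slfn5, an interferon-inducible Schlafen protein, fell from 90.2, 144 and 98.3 CPM to 23.8, 25.6 and 26.9 CPM (log2 fold change -2.12 ± 0.28, adjusted p = 0.018). Its resected libraries were tightly grouped below all intact ones. The interferon-inducible GTPase genes Ifi47 (-1.58 ± 0.24, adjusted p = 0.0253) and Irgm1 (-1.33 ± 0.22, adjusted p = 0.0253) were called lower as well and were named after their values were seen. These 3 genes are not on the interferon-stimulated list. Of the 29 genes on the interferon-stimulated list none was called by edgeR, 24 log2 fold changes were negative, the median was -0.70, and 15 genes (51.7%) were lower without overlap, beside 17.7% of all features. DESeq2 called 3 of them lower and 1 higher. Xaf1, an interferon-induced promoter of apoptosis (log2 fold change -1.07, adjusted p = 0.055), and Oasl2, an antiviral oligoadenylate synthetase-like protein (-2.50, adjusted p = 0.077), had the smallest p-values.

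Other leading genes that fell were spread over functions. Tspyl3, a member of the nucleosome assembly family, fell from 24.5, 22.7 and 19.3 CPM to 8.48, 9.21 and 7.99 CPM (log2 fold change -1.37 ± 0.15, adjusted p = 0.0133), the smallest p of the genes called lower. Fbxo46, an F-box protein of ubiquitin ligases (-1.64), Shprh, a ubiquitin ligase of DNA repair (-1.07), Tmppe, a predicted phosphoesterase (-1.25), Rbm12b2, an RNA-binding protein (-1.30), and Rtl5, a retrotransposon-derived gene (-1.49), were called with intact means between 10.5 and 38.0 CPM. Among called genes with a symbol and at least 1 CPM in intact spleen, the largest decreases were in low genes, such as the collagen gene Col5a3, at 3.66, 1.88 and 4.001 CPM in intact and 0.140, 0.240 and 0.0983 CPM in resected libraries (-4.29 ± 0.68, adjusted p = 0.0253). Map2 (-3.52), a microtubule-associated protein, and Rapgefl1 (-3.09), a guanine nucleotide exchange factor, followed, and Gm34908 (-2.86) and E030007A22Rik (-2.31) were called too. S1pr5, the sphingosine-1-phosphate receptor of NK cells and patrolling monocytes, fell from 14.2, 11.8 and 8.15 CPM to 1.28, 1.22 and 1.77 CPM (-2.995 ± 0.64, adjusted p = 0.0479). Trat1, a T cell receptor adaptor (-2.40), and Art2b, a T cell ADP-ribosyltransferase (-2.37), fell in the libraries in which the T cell markers summed to 101 to 154 CPM instead of 227 to 499 CPM, and the part of T cells was not tested.

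Among other genes called higher with small p-values, Tm2d2, a membrane protein, went from 24.1, 26.5 and 24.99 CPM to 56.4, 43.5 and 61.7 CPM (log2 fold change 1.10 ± 0.13, adjusted p = 0.018). Smim7, a small membrane protein, had a log2 fold change of 1.07 ± 0.14 (adjusted p = 0.018). Raver2, an RNA-binding protein, rose from 3.20, 5.47 and 4.64 CPM to 23.2, 18.5 and 36.0 CPM (2.55 ± 0.35, adjusted p = 0.0183). None of these 3 genes showed overlap between the states.

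The lists of chemokine receptor and adhesion genes held no edgeR call. None of 23 chemokine receptors, 28 integrins, 27 cell adhesion molecules or 14 selectin pathway genes was called by edgeR, and the medians were 0.18, -0.24, 0.12 and 0.06. Members higher without overlap made up 21.7%, 7.14%, 14.8% and 7.14% of these lists, beside 17.4% of all features. Members lower without overlap made up 30.4%, 21.4%, 11.1% and 21.4%, beside 17.7%. DESeq2 called 1 chemokine receptor higher and 2 lower, and 2 integrins higher and 1 lower. It called 5 cell adhesion molecules higher and no selectin pathway gene, beside 4.75% of all features called higher and 3.02% lower. Ccr2, which guides classical monocytes out of the marrow and into tissue, read 181, 227 and 121 CPM in intact and 59.7, 96.8 and 91.8 CPM in resected libraries, without overlap (log2 fold change -1.09 ± 0.44, adjusted p = 0.192). Ccr7, which guides cells to lymphoid tissue, read 261, 291 and 468 CPM in intact and 1403, 713 and 531 CPM in resected libraries (1.38 ± 0.60, adjusted p = 0.226). The states did not overlap for either gene, and neither tool called them. Ccr6 had a log2 fold change of -1.55 (adjusted p = 0.105), Cxcr6 of -1.48 (0.155 as adjusted p), Cxcr1 of 1.52 (adjusted p = 0.184) and Ccrl2, a non-signalling chemerin receptor, of 1.22 (adjusted p = 0.205). Ackr3, a scavenging chemokine receptor, read 12.7, 10.9 and 19.7 CPM in intact and 53.3, 34.8 and 23.0 CPM in resected libraries (1.36, edgeR adjusted p = 0.089). Memo1, a mediator of cell motility, read 22.5, 21.3 and 27.8 CPM in intact and 29.9, 69.3 and 53.5 CPM in resected libraries (1.09 ± 0.28, edgeR adjusted p = 0.0697). DESeq2 called Ccr6 lower (adjusted p = 0.0146) and Ackr3 (0.00856) and Memo1 (0.00348) higher. The kinase gene Prkx (-0.76, adjusted p = 0.157) and the actin adaptor gene Cd2ap (-0.04, adjusted p = 0.956) were not called. Tns2, a focal adhesion protein, had 21, 0 and 41 counts in intact libraries and 0 in every resected one, which was not called (adjusted p = 0.254).

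Antigen presentation genes were also without edgeR calls. Of 18 MHC class II and costimulation genes edgeR called none and DESeq2 called 1, Cd274, higher, 13 log2 fold changes were negative, and the median was -0.47. Ciita, the master regulator of MHC class II, read 409, 349 and 335 CPM in intact and 245, 171 and 52.2 CPM in resected libraries without overlap (-1.22, adjusted p = 0.253). Cd274, which encodes PD-L1, read 74.6, 73.3 and 145 CPM in intact and 535, 227 and 303 CPM in resected libraries (1.86, adjusted p = 0.0654 in edgeR and 0.0013 in DESeq2). The B cell marker sum, which also had its lowest value of 1635 CPM in resected library 3, moved with Ciita, and its part was not tested.

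The resected libraries differed among themselves. Of the 157 features called higher, resected library 3 held the highest of the 3 resected values in 83, library 1 in 53 and library 2 in 21, and library 2 held the lowest value in 89. Features called higher took 0.524% to 0.664% of the scaled counts in intact and 1.504% to 1.94% in resected libraries, and features called lower took 0.270% to 0.324% and 0.104% to 0.121%.

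The splenic effect was set against that of the same operation on the blood fractions labelled as monocytes, whose libraries are separate from the splenic ones. Of the 277 features called in spleen, 167 were also called in blood in the same direction, 3 were called in the opposite direction and 107 were not called in blood. Both effects came from the same fit of 12 libraries. These numbers were not set against the share of all features called in blood. The difference itself was called for 13 features with a higher effect in spleen (0.0646%) and 44 with a lower one (0.219%), 0.283% in all, and 8 of the 277 were among them. With a replicate block only 1 feature had a called difference, and leaving out single libraries gave 5 to 93 calls. Raver2 rose in spleen and had a log2 fold change of -1.01 in blood, a difference of 3.55 (adjusted p = 0.0322). Slpi rose less in spleen than in blood, where its log2 fold change was 5.12, and differed by -3.30 (adjusted p = 0.0136). For Cxcl1 the effects were 5.36 in spleen and 6.34 in blood, and the difference of -0.98 ± 0.66 was not called (adjusted p = 0.469). For Il1a the effects were 3.61 in spleen and 8.80 in blood (difference -5.18, adjusted p = 0.0639).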

How the data were processed

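RNA-seq of CD115-positive cells from spleen and blood, 3 libraries per tissue and state, was analysed, and groups and replicate numbers came from the sample titles. The authors deposited expected counts per transcript or gene for each library, not scaled for depth or length. The submitters' processing notes name STAR and GRCm39. The counting tool and annotation were not given in the sources used here. Accessions were matched to symbols through RefSeq (GRCm38.p6, names only), the 14934 of 40274 that did not match stayed as features of their own, so that 15680 of the 20135 tested features had a symbol, entries were summed per gene and rounded, and unassigned entries were left out. Counts were fitted in edgeR 4.0.16 (R 4.3.3) over all 12 libraries with filterByExpr, TMM factors and a robust quasi-likelihood model, with Benjamini-Hochberg adjustment. DESeq2 1.42.0 was an alternative. The script was tested on simulated counts with less spread than these data, whose fitted common dispersion was 0.31. That test does not show what share of changes was found here. Standard errors came from the F statistic, and a group whose libraries all had at most 3 counts of a gene was treated as at the floor, which covers counting error only.

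The comparison and gene lists were chosen with earlier results of these data known. Named genes were 5 markers, the 10 called genes per direction with the smallest p (at least 50 scaled counts, no overlap), the 8 with the largest change (at least 1 CPM), up to 4 called members of each list, or the 2 with the smallest p where none was called, the genes named in the paper's text, and the 3 per direction with the smallest p for spleen against blood. Genes outside this rule are marked, and a few genes that the rule chose are not reported here. Transcript lengths are from GENCODE vM21. Libraries within a state differed beyond sampling noise (chi-square of 21.3 to 227 relative to its degrees of freedom), so each counted as 1 replicate.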

Additional observations from a re-analysis of the deposited data

Results flagged for a closer look

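For 8 named genes the effect of resection differed between spleen and blood in the edgeR test of the difference, given here as spleen minus blood on the log2 scale. Raver2, Fam78a, Ddb2, Slpi, Clec10a and Glmp met the naming rule by their small p in this same test. The number of named genes called is therefore not a result. Over all features 0.283% were called. With a replicate block none of the 8 genes was called (edgeR adjusted p = 0.0505 to 0.119). Leaving out single libraries gave 5 to 93 such differences over all features. The effect was higher in spleen for Raver2 (3.55), Fam78a (1.69) and Ddb2 (1.39). Fam78a had log2 fold changes of -0.97 in spleen and -2.66 in blood, and Ddb2, a DNA damage sensor, of 0.47 and -0.92. The effect was lower in spleen for Slpi (-3.30), Clec10a (-3.54), Glmp (-1.13), C1ra (-2.64) and Mertk (-2.63). Clec10a fell in spleen (-1.45) and rose in blood (2.09), whereas Glmp, a lysosomal membrane protein, had 0.07 in spleen and 1.203 in blood. C1ra had 1.501 and 4.14, and Mertk, a receptor for apoptotic cells, 0.81 and 3.45. Haemoglobin genes took 13.2% to 34.2% of counts in the blood libraries and 0.0814% to 3.47% in the splenic ones, and their part in these differences was not tested.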

How the results depend on the processing

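The number of called features depended on the processing. Their direction did not turn, which the separation of all 3 resected from all 3 intact libraries fixes when single splenic libraries are left out. Higher, lower and total calls were 956, 608 and 1564 with DESeq2, 284, 205 and 489 with at least 10 counts in every library, and 56, 45 and 101 with no low-count filter, and 207 were lower with no limit on the fold change. Genes whose effect differed between spleen and blood numbered 1163, 99 and 22 under the first 3 of these, against 57. Leaving out each library of the 12 in turn gave 1 to 1025 called features, 1 to 626 higher, 0 to 399 lower and 5 to 93 differing between the tissues. The fewest calls came without spleen intact libraries 1 and 2 (1 and 3 features), spleen resected library 3 (25) and blood resected library 2 (46), and the most came without blood intact library 3 (1025). The cause was not tested. With a replicate block the numbers were 83, 67, 150 and 1, and 119 of the 277 features were called again. Deviations of same-numbered libraries correlated at -0.05 to 0.19. They exceeded 0.1 for 2 of the 3 pairs of resected spleen and resected blood (0.13 and 0.19, against 0.04 for the third) and for no other pair. Differently numbered libraries of these 2 groups correlated at -0.19 to 0.07. Whether same-numbered pools of spleen and blood shared mice is thus not settled, and the main fit did not take the numbers as pairs. RLE factors, entries as deposited, leaving out haemoglobin genes and the 6 splenic libraries alone kept the counts within 1.5 times, but the same calls were made for 254, 189, 269 and 129 of the 277. Over 155 named genes and 3060 values none changed sign with a call on either side, 2352 stayed on their side of the threshold, 593 lost the call and 115 gained one. Single genes differed in this. The call of Cxcl1 returned in 18 of 20 alternative settings, those of Nr4a3, Stfa3 and Ttll13 in 4 and that of Gdf15 in 3. Medians of 13 of 58 gene lists changed sign in at least 1 alternative, among them the chemokine receptor, cell adhesion molecule, selectin, interleukin-1 family, other cytokine and BCL2 lists. With 3 libraries per state, p-values measure the spread between pools of 5 mice. In the main fit that spread was estimated over all 12 libraries of both tissues, not over the splenic ones alone. Genes near the floor of 3 counts cannot be ranked by fold change.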
